A study of Mus musculus with 8 samples.

Results

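The claudins of mouse liver epithelium and endothelium were followed across single cells as 10 genes: *Cldn1*, *Cldn2*, *Cldn3*, *Cldn4*, *Cldn5*, *Cldn6*, *Cldn7*, *Cldn8*, *Cldn12* and *Cldn14*. They were chosen by name as claudins of epithelium and endothelium, and are 10 of the 35 claudin genes and of the 46517 genes in the count tables. The series holds 3491 single cells of adult livers, sequenced by Smart-seq2, which reads whole transcripts of cells sorted into wells: 397 parenchymal (epithelial) cells, 1106 endothelial cells, 651 immune cells and 1337 mesenchymal cells. The cells of each class form a male and a female pool, which are the 8 labelled samples and serve as replicates, 2 per class. Hepatocytes are the exception, since the female pool holds 2 of them. The mice were of the C57BL6 background, aged from 8 weeks to 1 year, and either wild type or heterozygous for fluorescent reporters (*Pdgfrb*-GFP, *Pdgfra*-H2bGFP, *Cspg4*-dsRED, *Acta2*-GFP, *Cldn5*-GFP or combinations of them). The labels give each cell a plate and a sex but no mouse, so p-values measure the spread between pools that may mix animals. The authors' clusters were used, named as they name them: #p2 for cholangiocytes, #p1, #p3, #p4 and #p5 for hepatocytes, and #e1 to #e8 for endothelium. These clusters were made on the same transcriptomes, claudins included.

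Claudins are membrane proteins with a pair of extracellular loops that meet those of the neighbouring cell and form the strands of the tight junction. Some seal the space between cells and others form pores for ions or water, so that the set of claudins in an epithelium or endothelium sets what can pass between its cells. In the liver, tight junctions of hepatocytes close the bile canaliculi and those of cholangiocytes close the bile ducts.

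Cells held between 47063 and 1128421 counts, with a median of 228708. Cells of #p2 had all 6 cholangiocyte markers at 10 CPM (a gene's counts scaled to a common total of the cluster's summed counts) or more, with a sum of 8325 CPM, against 32.2 to 133 CPM in the hepatocyte clusters. Hepatocyte clusters had all 8 hepatocyte markers and sums of 11538 to 27047 CPM, but #p2 also held 4502 CPM of them, with 6 of the 8 at 10 CPM or more. All endothelial clusters had the 6 endothelial markers, and #e4 alone had all 4 lymphatic markers at 10 CPM or more. Some endothelial cells were sorted on the *Cldn5* reporter and others on CD31 or VE-cadherin antibodies. The labels do not say which, and the part of this choice in the *Cldn5* levels was not tested.

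The promoters of *Cldn3*, *Cldn4*, *Cldn6* and *Cldn7*, which hold an E-box and are claudins of cholangiocytes, and that of the endothelial *Cldn5* are shown so that their common letters can be seen beside the levels that follow. They are RefSeq windows on GRCm38.p6 from 250 bases before to 50 bases after a transcript start, printed 5′ to 3′ on the gene's strand. The windows are chr5:134985964-134986263 (plus strand) for *Cldn3*, chr5:134946885-134947184 (minus) for *Cldn4*, chr17:23679115-23679414 (plus) for *Cldn6*, chr11:69965171-69965470 (plus, the second of 2 starts; the first held no E-box) for *Cldn7* and chr16:18776597-18776896 (plus) for *Cldn5*. Capitals mark the E-box of Snail and Zeb factors (CACCTG, or CAGGTG on the other strand), the GC box (GGGCGG, or CCGCCC) and the Grainyhead motif (AACCNGTT, or AACNGGTT), and no marked stretches overlap.
Cldn3: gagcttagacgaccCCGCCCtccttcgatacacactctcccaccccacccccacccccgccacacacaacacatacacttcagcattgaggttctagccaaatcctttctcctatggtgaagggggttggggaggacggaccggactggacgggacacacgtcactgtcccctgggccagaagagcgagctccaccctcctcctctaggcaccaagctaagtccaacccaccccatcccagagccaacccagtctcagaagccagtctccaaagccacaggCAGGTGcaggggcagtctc
Cldn4: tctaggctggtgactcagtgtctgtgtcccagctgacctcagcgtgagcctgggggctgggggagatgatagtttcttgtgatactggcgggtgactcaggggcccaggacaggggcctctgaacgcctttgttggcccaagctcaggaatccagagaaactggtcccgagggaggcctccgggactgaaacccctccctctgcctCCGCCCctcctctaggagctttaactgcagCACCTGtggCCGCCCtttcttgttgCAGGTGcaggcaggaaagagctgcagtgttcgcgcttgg
Cldn6: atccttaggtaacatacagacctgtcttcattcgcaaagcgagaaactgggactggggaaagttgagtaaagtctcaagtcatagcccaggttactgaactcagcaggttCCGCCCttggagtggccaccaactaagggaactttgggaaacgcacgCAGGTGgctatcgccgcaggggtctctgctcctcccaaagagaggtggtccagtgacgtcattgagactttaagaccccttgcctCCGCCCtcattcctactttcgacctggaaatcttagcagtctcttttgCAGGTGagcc
Cldn7: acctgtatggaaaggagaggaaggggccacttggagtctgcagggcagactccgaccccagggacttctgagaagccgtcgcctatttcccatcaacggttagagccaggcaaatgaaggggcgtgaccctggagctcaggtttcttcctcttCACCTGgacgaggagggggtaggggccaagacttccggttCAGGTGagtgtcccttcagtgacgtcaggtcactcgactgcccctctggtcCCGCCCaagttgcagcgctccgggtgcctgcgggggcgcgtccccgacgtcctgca
Cldn5: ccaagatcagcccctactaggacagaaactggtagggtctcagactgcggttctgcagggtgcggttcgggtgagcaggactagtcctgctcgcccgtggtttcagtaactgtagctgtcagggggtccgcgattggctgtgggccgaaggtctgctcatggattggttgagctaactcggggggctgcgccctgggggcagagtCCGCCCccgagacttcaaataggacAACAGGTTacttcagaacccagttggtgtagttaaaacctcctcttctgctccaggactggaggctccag
The E-box was found in 5 of 14 windows of the 9 claudins with an entry (*Cldn8* had none), against 20.2% of 32851 promoters of the same length. The 4 cholangiocyte windows shown were chosen for it, and those of *Cldn2* and *Cldn12*, also held by cholangiocytes, have none. In *Cldn4* it stood 14 bases before and 11 bases after the start, and in *Cldn3* 31 bases after it. The Grainyhead motif was found only in *Cldn5* among the 14 windows, 20 bases before the start, and in 2.09% of all promoters. GC boxes were in 8 of the 14 windows (35.7% of all promoters). A TATA box (TATAAA, or TTTATA) was in 1, that of *Cldn2* (13.6%), and an ETS motif (AGGAAG, or CTTCCT) in 3 (35.4%). Several windows belong to 1 gene and overlap, and a match is a match of letters only. By GENCODE vM21, *Cldn3* (chr5:134986214-134987472) and *Cldn4* (chr5:134945119-134946934) are single-exon genes 39279 bases apart on opposite strands. *Cldn6* lies 137 bases from *Cldn9* on the other strand, and the 3′ end of *Cldn3* overlaps the antisense gene *Wbscr25*. The use of strand in counting is not stated, so reads from such overlaps cannot be told apart.

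Cholangiocytes held 7 claudins at 100 CPM or more in at least 1 pool. *Cldn3*, a sealing claudin, was at 983 CPM (male pool) and 1017 CPM (female pool). *Cldn7*, a claudin of many epithelia that binds Epcam, was at 466 and 486 CPM. Both differed little between the pools, and both were counted in nearly every cell: *Cldn3* in 149 of 157 male and 36 of 37 female cells, *Cldn7* in 142 and 36. *Cldn6*, known from embryonic epithelia, was at 292 CPM (male pool) and 339 CPM (female pool). *Cldn4*, a sealing claudin that with *Cldn3* is a receptor of the *Clostridium perfringens* enterotoxin, was at 148 and 362 CPM. *Cldn8*, a claudin of the distal kidney tubule, was at 236 and 110.1 CPM. *Cldn2*, which forms pores for cations and water, was at 107 and 362 CPM. These last 3 differed by more than 2-fold between the pools, in opposite directions. In the female pool *Cldn2* and *Cldn4* have the same sum, 2262 counts, from different cells (counted in 20 and 28 of 37). *Cldn12*, a claudin without the usual binding motif for scaffold proteins, was at 111 and 135 CPM.

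The remaining members were low in #p2. *Cldn1* gave 1 count in 157 male cells and none in 37 female cells. *Cldn14*, known from the inner ear and the kidney, gave 34 counts, all in 1 male cell. *Cldn5* was at 6.67 CPM (male pool) and 19.2 CPM (female pool). Of the 37 female cells, 36 came from 1 plate. *Cldn5* was counted in 32 of the 37, but in none of them with 20 counts (0 of 37 cells, which allows a share of up to 8.11%). Endothelial markers in #p2 summed to 38.0 CPM over both pools. Male cells held 25.4 CPM of them, with 1 of the 6 at 10 CPM or more. Female cells held 151 CPM, with 5 of the 6. Whether they account for the *Cldn5* counts of #p2 was not tested.

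Per kilobase of merged exons, the scale on which different genes can be compared, the order in cholangiocytes was led by *Cldn3* at 780.5 and 808 CPM per kb in the male and female pool. *Cldn7* followed with 239 and 249, then *Cldn6* with 170 and 197. *Cldn4* (81.7 and 199.6), *Cldn8* (100.2 and 46.7) and *Cldn2* (32.3 and 109) changed places between the pools, and *Cldn4* of the female pool stood level with *Cldn6*, so their order was not set. *Cldn12* was last of the 7 at 26.3 and 31.9. *Cldn3* alone made up 54.4% and 48.8% of the summed per-kilobase level of the 10 claudins, which came to 1435 and 1655 CPM per kb. The same sum was 236 in #p3, 92.0 in #p4, 46.8 in #p5 and 60.2 in #p1.

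**Figure D1:**
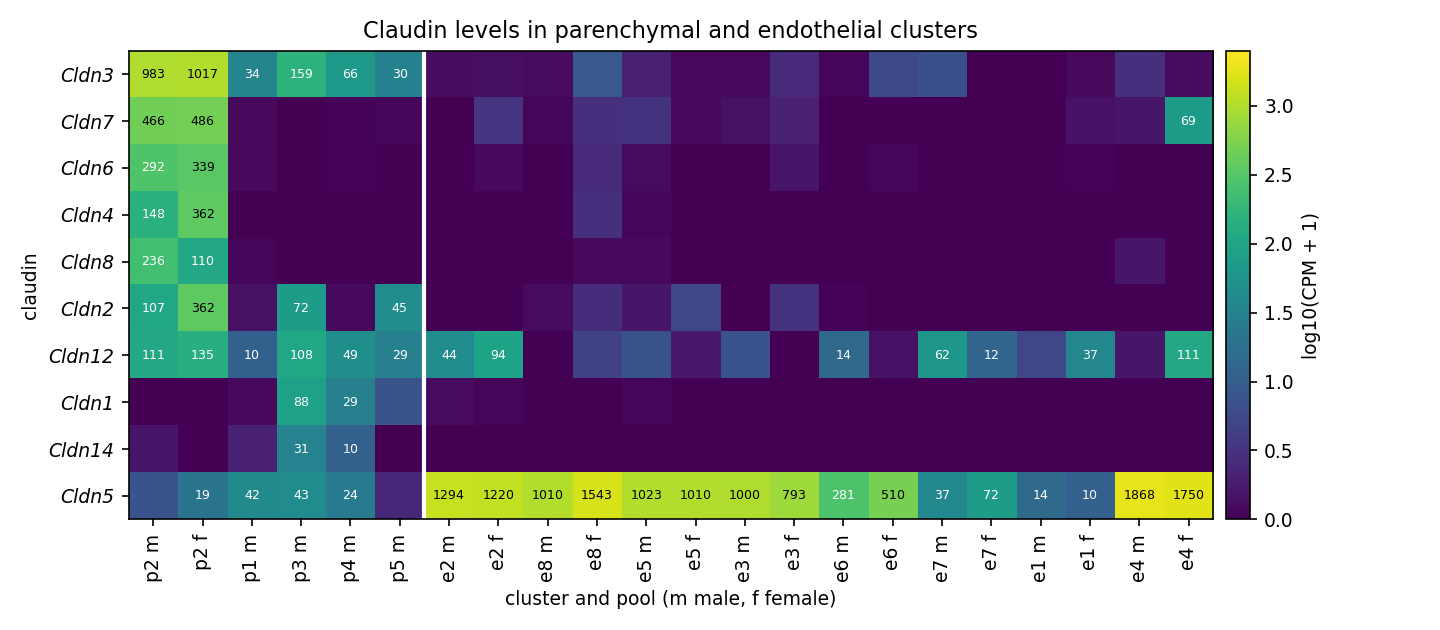
Level of each claudin in the parenchymal and endothelial clusters, with a column for each cluster and pool (m male, f female) of at least 5 cells; colour is log10(CPM + 1) and values of 10 CPM or more are printed. The cholangiocyte columns hold 7 claudins above 100 CPM in at least 1 pool, and *Cldn5* fills the endothelial row except in #e7 and #e1.

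Levels within #p2 were also compared between the 6 plates that held at least 5 of its cells. *Cldn3* ranged from 518 to 1539 CPM, *Cldn7* from 235 to 619 and *Cldn6* from 231 to 468. *Cldn4* ranged more widely, from 59.8 to 368 CPM, and *Cldn2* from 28.3 to 385, where its highest value came from 1 of 7 cells. *Cldn8* and *Cldn12* were at 0 on 1 plate with 7 cells and reached 324 and 140 CPM on others. The levels of *Cldn3*, *Cldn6* and *Cldn7* were thus the most even between plates.

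Against hepatocytes, 4 claudins were called higher in cholangiocytes and 1 lower, of 9 with a usable value. Among all genes tested, 10.6% were called higher and 1.85% lower (edgeR's quasi-likelihood test on summed counts of clusters, called where the Benjamini-Hochberg adjusted p fell under 0.05 and the fold reached 1 on the log2 scale). The hepatocyte side has no replicate pool: it is 4 cluster sums of the male pool, assumed to vary like the other clusters of the fit. The p-values compare these sums and not hepatocytes of several samples. *Cldn4* was called higher with an adjusted p of 0.000586. In the male pool, the only one with at least 5 cells in a hepatocyte cluster, it had 8343 counts in 157 cells of #p2 and none in 201 hepatocytes. With the limit of 3 counts over that pool this is 1773-fold, and the lower bound of the exact 95% counting interval is 1442-fold. *Cldn7* (adjusted p 0.000911) had 26208 against 4 counts, a ratio of levels of 4178 (exact 95% counting interval 1632 to 15335). *Cldn8* (adjusted p 0.00130) had 13279 against 1 count, a ratio of 8468 (1520 to 334481). *Cldn6* (adjusted p 0.00215) had 16427 against 3 counts, a ratio of 3492 (1195 to 16933). All 4 were thus at or near 0 in hepatocytes, and the call of *Cldn4* was lost with DESeq2 (adjusted p 0.128).

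*Cldn1*, a claudin of hepatocytes known as an entry factor of hepatitis C virus, was called lower, with a log2 fold change of -9.30 (standard error 3.07, adjusted p 0.0468 by edgeR). Its level in #p2 was 0.0178 CPM in the male pool, against 30.9 CPM as the mean of the 4 hepatocyte clusters. The call was lost with the pool as a replicate block (adjusted p 0.0646), without the female epithelial pool (0.215) and with DESeq2 (0.419). *Cldn2* (log2 fold change 4.95, standard error 1.70, adjusted p 0.0512), *Cldn3* (3.29, 1.67, 0.208), *Cldn12* (0.95, 1.52, 0.843) and *Cldn5* (-1.12, 0.79, 0.412) did not pass. *Cldn2* passed under 6 of 16 alternatives and *Cldn3* under 2, with the lowest adjusted p (1.02e-05 and 4.94e-05 by edgeR) where only parenchymal clusters entered the fit. The median log2 fold change of the 9 members was 4.95, the value of *Cldn2*, beside 1.22 over all genes tested. *Cldn14*, at 0 in #p5 and in the female pool of #p2, had no usable value.

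Cholangiocytes and hepatocytes mostly came from different plates. On the plate with most hepatocytes, 8 cells of #p2 stood beside 155 of them. There *Cldn3* was at 901 against 68.1 CPM, *Cldn7* at 353 against 0.0764, *Cldn6* at 303 against 0.0382 and *Cldn4* at 59.8 against 0. *Cldn8* was at 112 against 0 and *Cldn2* at 223 against 27 CPM. *Cldn1* was at 0 against 29.2 CPM, and *Cldn12* was at 57.7 against 54.7, a ratio of 1.05 (exact 95% counting interval 0.860 to 1.28), but all 109 counts in #p2 there came from 1 of the 8 cells. Over the male pool *Cldn12* had a ratio of 2.77. *Cldn5* was at 14.8 against 14 CPM on this plate. The other members named had the same direction on this plate as over the male pool. A second plate, with 21 cells of #p2, held 12 hepatocytes, 8 of them in #p1. In #p2 and #p1 of that plate *Cldn3* was at 1539 and 163 CPM, *Cldn7* at 619 and 1.56 and *Cldn6* at 468 and 0.779. *Cldn4* was at 108 and 0, *Cldn8* at 324 and 0, *Cldn2* at 121 and 1.56 and *Cldn12* at 23.5 and 0 CPM. *Cldn1* was at 0 in both, and *Cldn5* at 1.55 and 3.11 CPM.

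Single cholangiocytes held several claudins at once. Of 194 cells, 179 (92.3%) had at least 1 count of 3 or more of the 10, and 102 (52.6%) of 5 or more, with a median of 5 and a highest value of 8. With every cell thinned to 50000 counts the median was 4, and 79.2% held 3 or more. At a limit of 20 counts of a claudin in place of 1, the median was 3, with 137 cells (70.6%) at 3 or more and 34 (17.5%) at 5 or more. Hepatocyte clusters had medians of 1 to 2 and endothelial clusters a median of 1 claudin, *Cldn5* in most cells. When thinned, the median was 0 in #e1, #e7, #p1, #p4 and #p5, 2 in #p3 and 1 in the other endothelial clusters. In #p3 47.8% of cells held 3 or more (30.4% when thinned, 13% at 20 counts). In the endothelial cluster #e8 it was 24.5% (14.3% when thinned), 37 of these 38 cells were on plates with at least 20 cells of #p2, and none held 3 at 20 counts.

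**Figure D2:**
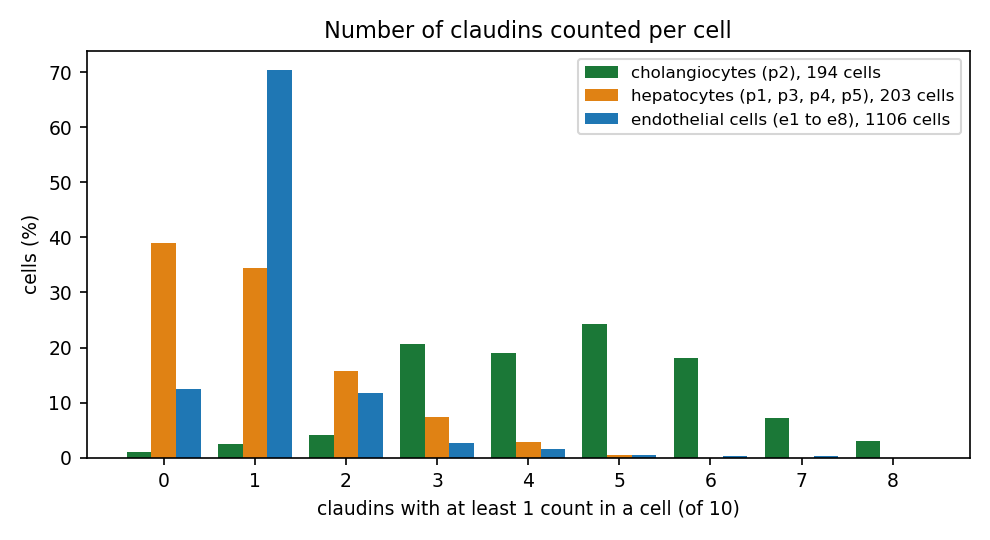
Number of the 10 claudins with at least 1 count in a cell (horizontal axis) against the percent of cells (vertical axis), for 194 cholangiocytes, 203 hepatocytes and 1106 endothelial cells. Cholangiocytes spread around a median of 5, whereas every endothelial cluster had a median of 1.

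Pairs of claudins were compared within #p2, leaving aside *Cldn3* and *Cldn7*, which were counted in nearly all cells. *Cldn6* was counted in 84.4% of cells with *Cldn4* and in 54.1% of those without it. *Cldn2* was counted in 66 cells, 43 of which held *Cldn4*. *Cldn8* was counted in 61.5% of cells with *Cldn4* and 55.1% of those without. At 20 counts, *Cldn6* was in 61.8% of the 55 cells with *Cldn4* and 43.2% of the 139 without, and *Cldn8* in 41.8% and 36.0%. Cells with *Cldn4* were deeper, with a median of 336921 counts against 280461, and the part of depth in these shares was not tested. Counts of *Cldn3* and *Cldn7* were spread over the cells, the highest cell giving 1.72% and 2.47% of them. For *Cldn2* 1 cell gave 16.9%, and for *Cldn12* 1 cell gave 14.5%.

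Single counts of 6 of the 7 cholangiocyte claudins also appeared in cells of the other classes, and more often on the plates with most cholangiocytes. On the 3 plates with at least 20 cells of #p2, *Cldn3* was counted in 248 of 528 endothelial, immune and mesenchymal cells (47.0%), at a median of 1 count. On 5 plates with 1 to 19 such cells it was counted in 2.54%, and on 14 plates without any in 1.53%, with median depths of 199954, 194349 and 261094 counts. For *Cldn7* these shares were 19.9%, 1.96% and 0.706%. *Cldn6* (12.7%), *Cldn4* (11.4%), *Cldn2* (9.66%) and *Cldn8* (7.01%) were likewise counted most often on the first 3 plates. *Cldn12* was not, with shares of 8.71%, 18.5% and 7.53%. The level of *Cldn3* on these 3 plates was 3.68 CPM. The source of these single counts was not tested, since plates differ in sort, sex and clusters as well, and no level is read from them here.

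Among hepatocytes, claudin levels differed between the authors' clusters. All 23 cells of #p3, 59 of #p4 (periportal) and 57 of #p5 (pericentral) came from the male pool, and 82.6% to 98.2% of each from 1 plate, so the clusters were compared without a test. *Cldn1* was at 88.0 CPM in #p3, 28.9 in #p4, 6.37 in #p5 and 0.215 in the male cells of #p1. *Cldn3* was at 159, 65.7, 30.3 and 34.4 CPM in the same order. *Cldn12* was at 108, 49.1, 29.2 and 10.3 CPM. All 3 were highest in #p3, which also had the highest sum of hepatocyte markers. The low values rested on few cells: 93 of 97 counts of *Cldn12* in #p1 were in 1 cell, and the 3 highest cells gave 97.5% of *Cldn3* counts in #p1 and 86.9% of *Cldn1* and 86.8% of *Cldn12* counts in #p5. The high values of #p3 were also uneven, with 61.3% of *Cldn1*, 45.4% of *Cldn3* and 74.1% of *Cldn12* counts from 3 of 23 cells.

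*Cldn2* was at 44.9 CPM in #p5 and 72.0 in #p3, but at 0.228 in #p4 (3 counts in 3 of 59 cells). Cluster #p1 was also near 0, with 1.56 CPM or less on each of the 4 plates with at least 5 of its cells. The ratio of #p5 to #p4 was 197 (exact 95% counting interval 67.1 to 961). The counts came from 5 of 57 cells in #p5, with 67.2% of them in 1 cell and 99.3% in 3. In #p3 they came from 6 of 23, with 70.2% in 1 cell. *Cldn14* was at 31.4 CPM in #p3 and 10.4 in #p4, counted in 3 and 5 cells, and at 0 in #p5 (0 of 57 cells, which allows a share of up to 5.26%). On the same 4 plates of #p1 it was at 6.06 CPM or less. On the log2 scale with 0.5 CPM added, #p5 minus #p4 was -2.10 for *Cldn1*, -1.10 for *Cldn3*, -0.74 for *Cldn12*, -4.45 for *Cldn14* and 5.96 for *Cldn2*. *Cldn2* was thus the one claudin of these 5 with a higher level in the pericentral cluster, with counting error alone behind the interval.

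**Figure D3:**
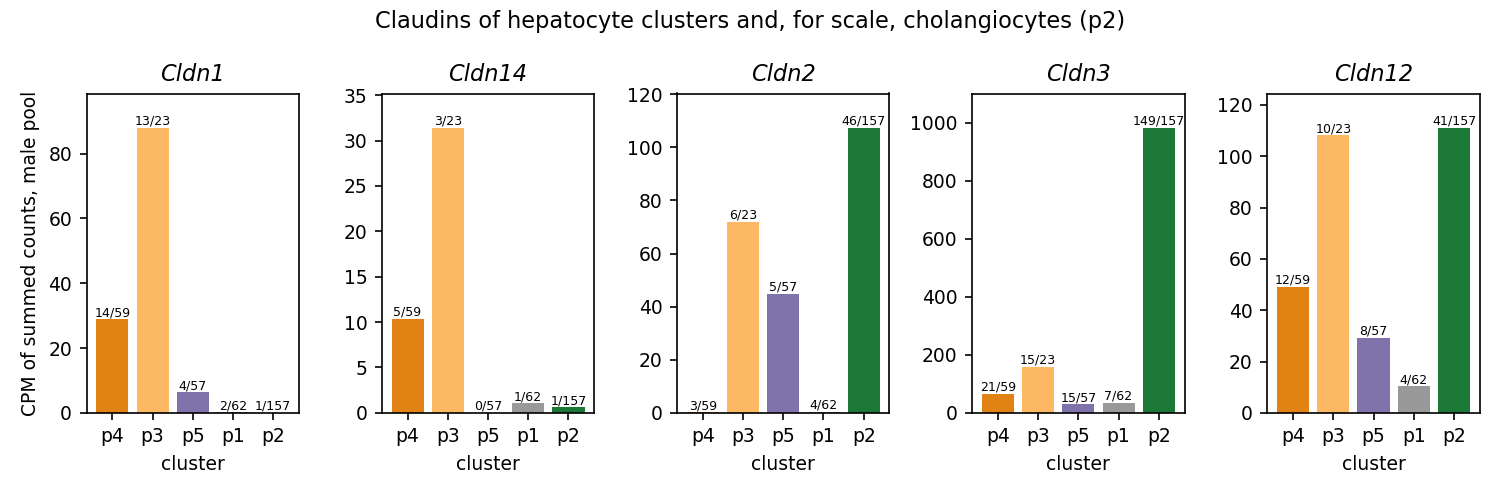
Level (CPM of summed counts, linear axis from 0, male pool) of 5 claudins in hepatocyte clusters #p4, #p3, #p5 and #p1 and, for scale, cholangiocytes #p2; the figures over the bars are cells with at least 1 count of all cells. *Cldn1* and *Cldn14* are highest in #p3 and near 0 in #p2, and *Cldn2* is near 0 in #p4 and #p1.

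In single hepatocytes, *Cldn1* and *Cldn2* were counted together in 8 of 203 cells, *Cldn1* without *Cldn2* in 25 and *Cldn2* without *Cldn1* in 10. *Cldn3* accompanied *Cldn1* in 20 of its 33 cells and *Cldn2* in 11 of its 18. It was also in 38 cells without *Cldn1*, beside 132 with neither, and in 47 without *Cldn2*, beside 138 with neither. The hepatocyte clusters were pooled for these pairs, and the part of cluster and depth was not tested. *Cldn5* was at 42.7 CPM in #p3, 24.3 in #p4, 1.36 in #p5 and 41.8 in #p1, with 71.9% to 86.5% of its counts in #p1, #p3 and #p4 from 1 cell each. Endothelial markers summed to 31.7, 63.8, 16.8 and 250.7 CPM in these clusters. Their part in the *Cldn5* counts was not tested.

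In endothelium *Cldn5*, which seals the blood-brain barrier against small molecules, had the highest level per kilobase of the 10 members in every pool but the female one of #e1. In the male and female pools it was at 1868.5 and 1750.3 CPM in the lymphatic cluster #e4, 1294 and 1219.6 in the portal vein cluster #e2, and 1010.1 and 1543 in the sinusoidal #e8. It was at 1023 and 1009.6 CPM in #e5, 999.9 and 793 in #e3 (6 female cells) and 281 and 510 in #e6, the last sinusoidal cluster before the central vein. In the central vein clusters it was at 37.3 and 71.9 CPM (#e7) and 14.1 and 10 CPM (#e1). Both pools of #e4 stood above those of every other cluster, and #e6, #e7 and #e1 followed below the rest without overlap. The pools of #e8 spanned the levels of #e2, with #e5 near its lower one and #e3 below it, so the order of these 4 was not set. Mesenchymal markers in #e4 summed to 1503 CPM, and their part in its level was not tested. Per kilobase, *Cldn5* was at least 95.2% of the summed level of the 10 claudins in the pools of #e2, #e3, #e4, #e5, #e6 and #e8. In #e7 it was 57.8% in the male and 94.8% in the female pool. In #e1, where all 10 were low, it was 90.4% in the male and 43.4% in the female pool, where *Cldn12* had 53.8%.

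**Figure D4:**
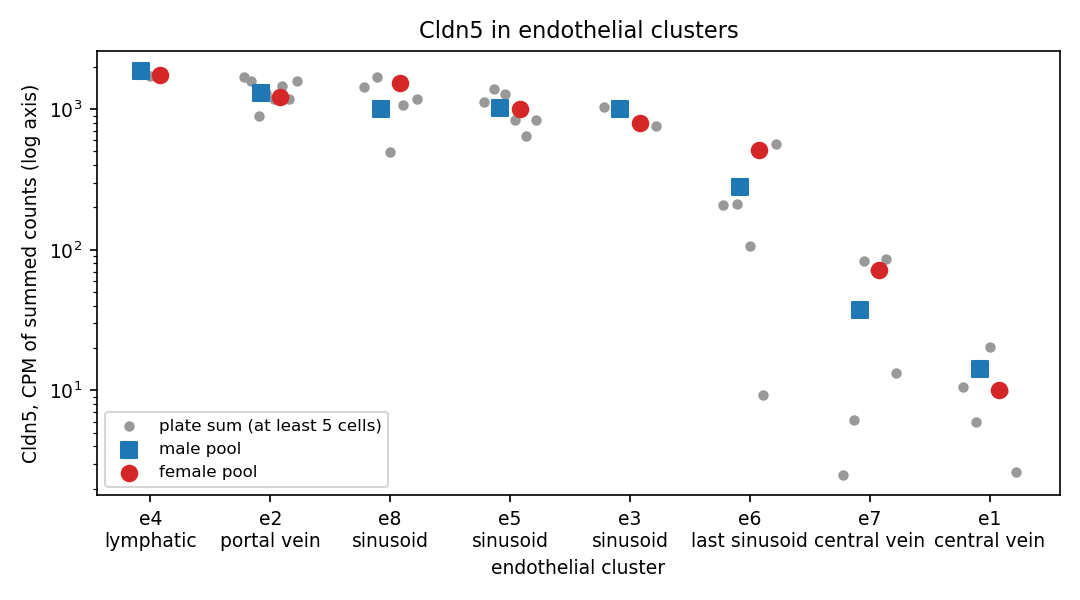
*Cldn5* level (CPM of summed counts, log axis) in the 8 endothelial clusters, with the authors' names for them; squares are male pools, circles female pools and grey points the sums of single plates with at least 5 cells of the cluster. The pools of #e4, #e2, #e8, #e5 and #e3 lie between 793 and 1868.5 CPM, #e6 lies between, and #e7 and #e1 lie below 100 CPM.

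On the mean of clusters *Cldn5* was far lower outside the endothelium, although #e1 lay below that outside mean in both pools, and 1 of 2 members with a usable value was called higher in endothelial clusters. Among all genes with a usable value, 19.8% were called higher and 7.2% lower in this comparison. *Cldn5* had a mean level of 816 and 863 CPM over the endothelial clusters of the male and female pool, against 14.9 and 21.3 CPM over the others, with a log2 fold change of 6.03 (standard error 0.31, edgeR adjusted p 2.92e-18). *Cldn12* did not pass (0.94, 0.50, adjusted p 0.277), with 17.1 against 26.9 CPM for male and 32.3 against 28.7 CPM for female cells. The plain means of the male pool thus had the other sign than the fit. For the other 8 members edgeR gave no usable value (standard error over 100).

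Along the lobule, *Cldn5* was called lower in the central vein cluster #e1 than in the other 7 endothelial clusters, and was the only one of 5 members with a usable value to be called. Among all genes, 2.66% were called higher and 0.0464% lower. It differed by -5.82 on the log2 scale (standard error 1.0, edgeR adjusted p 0.000366), with 14.1 against 931 CPM for male and 10 against 985 CPM for female cells. The call was lost without the female endothelial pool (adjusted p 0.0906). On each of the 5 plates that held at least 5 cells of both, #e2 was 63.9-fold to 608-fold above #e1. The other central vein cluster, #e7, lay below #e5 by 11.7-fold and 103-fold on the 2 plates with both. With #e1 and #e7 together against the other 6 clusters, a grouping chosen after the data were seen, the log2 fold change of *Cldn5* was -5.09 (adjusted p 6.71e-06).

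Single cells showed the same contrast. At least 100 CPM of *Cldn5* was found in 78.1% of the cells of #e2, 71.5% of #e5, 91.0% of #e8, 85.6% of #e3 and 90.9% of #e4. In #e1 it was found in 1.97% (exact 95% interval 0.409 to 5.66) and in #e7 in 4.67% (1.90 to 9.38). Cluster #e6 was mixed, with 44.6% of cells at 100 CPM or more, a median of 23.2 CPM and an upper quartile of 757 CPM. In #e1 the median was 3.46 CPM, and 45.5% of all its *Cldn5* counts came from 1 cell. The 6 endothelial markers summed to 7949 CPM in #e1 and 9537 CPM in #e7, beside 6951 CPM in #e2, 9305 to 9598 CPM in #e3, #e5, #e6 and #e8 and 3798 CPM in #e4.

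The portal vein cluster #e2 was set against the other 7 endothelial clusters as the study did. None of the 8 members with a usable value was called (3 had an unadjusted p under 0.05, and DESeq2 called 0), where 3.38% of all genes were called higher and 0.0653% lower. *Cldn5* had a log2 fold change of 1.78 (standard error 0.56, adjusted p 0.0839 by edgeR), with 1294 against 748 CPM in male and 1219.6 against 813 CPM in female cells. It passed under 7 of 18 alternatives, for example with endothelial clusters alone in the fit (1.83, adjusted p 0.00138) and with #e4 left out (2.17, 0.0195). Without the 2 central vein clusters on the other side it was 0.34 (adjusted p 1.0). At the finer cluster setting, the 114 cells of the portal vein proper (#e2c) held 1409 CPM and the 14 cells that the authors annotate as peribiliary vessels (#e5c) held 154 CPM. The median of single cells was 1339 CPM in #e2c and 12.7 in #e5c. *Cldn12* showed the reverse order, 33.6 and 336 CPM, but in #e5c these were counts of 3 cells. No test of this pair was made.

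For the sinusoidal clusters the study's own comparison puts #e7 with #e3, #e5, #e6 and #e8, although its annotation names #e7 central vein. With that grouping none of 4 members with a usable value was called (2 had an unadjusted p under 0.05, and DESeq2 called 2), where 0.439% of all genes were called higher and 1.68% lower. *Cldn5* had a log2 fold change of 0.75 (standard error 0.45, adjusted p 0.704 by edgeR). The fit averages clusters on a log scale, and the plain means had the other sign, 670 against 1059 CPM for male and 786 against 993 CPM for female cells. With #e7 on the side of the other clusters it was 1.98 (adjusted p 0.00860), and 3 of 5 members with a usable value were called, *Cldn5* and *Cldn2* higher and *Cldn12* lower, where 1.71% of all genes were called higher and 1.67% lower. *Cldn2* (log2 fold change 5.65, adjusted p 0.0451) was at 4.35 CPM or less in every sinusoidal pool, and 29 of its 31 counts in #e8 were on 1 plate with 36 cells of #p2 and 19 of 33 in #e5 in 1 cell. That cell of #e5 came from a plate without cells of #p2. The call of *Cldn2* thus rests on few counts, and no level is read from them. *Cldn12* had -2.82 (standard error 0.93, adjusted p 0.146), and -3.57 with #e7 moved (adjusted p 0.0430). It was -6.73 (adjusted p 0.00814) without the male and -0.71 (adjusted p 1.0) without the female endothelial pool. Which side #e7 stood on thus decided the call of *Cldn5*.

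Other claudins in endothelium rested on few cells. *Cldn12* was at 43.7 and 94.2 CPM in the male and female pool of #e2, where 16 cells held it and 3 cells gave 70.4% of the counts. In #e4 it was at 0.624 and 111 CPM, with 91.5% of counts from 1 cell, and in #e7 98.4% of the counts came from 3 cells. *Cldn7* reached 69.2 CPM in the female pool of #e4, and 248 of its 249 counts over both pools were in 1 cell. *Cldn1* gave 6 counts in 2 cells of #e2. *Cldn2*, *Cldn3*, *Cldn4*, *Cldn6* and *Cldn8* stayed under 10 CPM in every endothelial cluster and pool, and *Cldn14* gave 1 count in 1106 cells.

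*Cldn5* was counted outside the endothelium as well. On the 8 plates with at least 20 endothelial cells, it was counted in 61.8% of 335 immune cells, at a median of 2 counts and 23 CPM, and on the 5 plates with 1 to 19 such cells in 23.8% of 311. On plates without endothelial cells it was counted in 2 of 5 immune cells, at 311 CPM. Among mesenchymal cells the shares were 32.4%, 12.6% and, without endothelial cells on the plate, 22.7%, at levels of 3.56, 8.71 and 6.59 CPM. Cells of other classes with 20 or more counts of *Cldn5* were few: 14 immune, 14 mesenchymal and 9 parenchymal cells. Their endothelial markers summed to 2852, 1804 and 910 CPM, against 453, 41.0 and 42.7 CPM in the other cells of these classes. The medians over single cells were lower, at 2094, 699 and 138 CPM, against 282, 11.1 and 11.9 CPM. The highest level in a finer cluster of another class was 415 CPM in #m14c, with 9 cells, followed by 356 CPM in #i9c, 26 cells that the authors annotated as contaminated. Whether these cells carried endothelial RNA was not tested. Over all 1337 mesenchymal cells *Cldn12* was at 26.5 CPM and counted in 17.1%, beside 6.85 CPM and 19.5% for *Cldn5*. In immune cells *Cldn12* was at 0.442 CPM.

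The partners of claudins in the tight junction were described from lists of genes, which, like the members, were picked with earlier results of these data known. Of 42 genes for junction proteins and their scaffolds, 39 had a usable value between cholangiocytes and hepatocytes, and 13 were called higher and none lower, beside 10.6% and 1.85% of all genes. These included the tetraspan proteins *Ocln*, *Marveld2* and *Marveld3* and the junctional adhesion molecule *F11r*. Their median log2 fold change was 2.73, beside 1.22 over all genes. Of 6 genes around Epcam and the protease matriptase, 5 were called higher, among them *Epcam*, whose protein was used to sort cholangiocytes. *St14*, which encodes matriptase, was at 271 and 428 CPM in #p2 against 0.106 CPM in hepatocytes, with an adjusted p of 0.000793 (edgeR). Its inhibitor *Spint1* was at 449 and 585 against 0.288 CPM (adjusted p 0.00362). Of 19 transcription factors tied to junction genes, 4 were called higher, all of epithelial kind (*Ehf*, *Elf3*, *Grhl2* and *Klf5*). *Ehf* was at 248 and 150 against 0.0269 CPM (adjusted p 0.00143) and *Elf3* at 208 and 237 against 5.05 CPM (adjusted p 0.00633). The median of the factors was -0.12.

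In the endothelial clusters 13 of 26 junction genes with a usable value were called higher and 1, *Ildr2*, lower, beside 19.8% and 7.2% of all genes. Their median log2 fold change was 1.41, beside 0.34 over all genes. *Jam2*, an adhesion molecule of endothelial junctions, was at 1087 and 1268 CPM against 21.6 and 27.2 CPM outside (log2 fold change 6.52, adjusted p 6.90e-17 by edgeR). *Esam* was at 821 and 834 against 62.2 and 134 CPM (5.46, 8.79e-17), and the angiomotin relative *Amotl1* at 302 and 506 against 66.7 and 113 CPM (3.86, 3.54e-15). Of 10 transcription factors, 8 were called higher, beside the same shares, with *Sox18* at 663 and 687 against 3.05 and 17.7 CPM (7.82, 4.02e-16). Of the list around Epcam, 1 of 2 genes with a usable value was called, *Spint2*. Within the endothelium 2 of 39 partners were called higher in #e2 (*Clmp* and *Ocln*), beside 3.38% of all genes, and 2 of 33 lower in the sinusoidal grouping (*Lsr* and *Pard3*), beside 1.68%.

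Genes with the most similar pattern were sought over 50 sums of a cluster and pool, by Pearson's r of log2(CPM + 1). The sums share plates and depth, and the values describe likeness only. *Cldn3* was closest to *Tm4sf4* (r = 0.95) and *Crb3*, and *Cldn4* to *Kif12* (0.99), *Epn3* and *Adgrf1*. *Cldn6* was closest to *Anxa13* (0.99), *Kif12* and *Plek2*, *Cldn7* to *F2rl1* (0.90), *Itgb6* and *Erich5*, and *Cldn2* to *D630024D03Rik* (0.90), *Elf3* and *Prss8*. Of these, *F2rl1* was highest in #e4 (95.2 CPM), where 248 of 249 counts of *Cldn7* were in 1 cell. *Cldn8* was closest to *Rem2* (0.99). *Cldn5* was closest to *Kdr* (0.89), *Gpihbp1* and *Flt4*, the first and last being receptors of vascular endothelial growth factors and the other the capillary carrier of lipoprotein lipase. *Cldn1* was closest to *Slc22a28* (0.91) and *Inhbc*, and *Cldn14* to *Gm12354* (0.97), all highest in #p3. *Cldn12* had no close match (*Etfbkmt*, 0.78).

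Of the 25 other claudins in the table, 15 had at least 1 count and 6 reached 10 CPM in a sum of at least 5 cells. *Cldn23* was at 40.9 CPM in #p2, in 31 of 194 cells, and was called higher than in hepatocytes. *Cldn15* was at 56.2 CPM in #e1 (24 of 152 cells), 30.9 CPM in #e6 (18 of 112 cells) and 10.9 CPM in #e2. In the mesenchymal cluster #m9 it was at 101 CPM. Of 5 other claudins with a usable value, it alone was called higher in #e1 than in other endothelial clusters, where *Cldn5* was called lower. Among all genes 2.66% were called higher there. *Cldn34c1* was at 17.1 CPM in #m4 and 12.2 CPM in #e4, and *Cldn10* at 12.4 CPM in #m9. *Cldn11* in #e4 (91.8 CPM) came from 1 cell, and *Cldn22* reached 14.2 CPM in the female pool of #e5.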

How the data were processed

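Per the study's methods, the authors sorted dissociated adult liver cells into plates, made Smart-seq2 libraries, removed cells of low depth or quality and contaminated cells, and clustered each class with pagoda2. The submitters' processing notes name bcl2fastq, Bowtie, Bowtie2, Subread, featureCounts, Seurat and the builds GRCm38 and mm10 without roles. Strandedness was not given in the sources used here. The authors deposited raw counts per gene and cell with a table of cells, and no normalization. The 92 spike-ins were left out. Counts were summed per multilevel cluster and sex pool (at least 5 cells, 50 sums) and fitted over all 30 clusters with edgeR 4.0.16 (TMM, quasi-likelihood test, R 4.3.3), with Benjamini-Hochberg adjustment over all genes with a usable value. A contrast with a standard error over 100 was not used. Cholangiocytes (#p2) were set against hepatocyte clusters, endothelial clusters against all others, and #e2, the sinusoidal clusters and #e1 each against the other endothelial clusters. CPM were taken from summed counts, and levels per kilobase use merged exons of GENCODE vM21. Intervals of ratios and shares are exact at 95% and, like limits from 0 counts (3 counts), cover counting error only. Named list genes were the called ones with the largest fold counted in at least 50% of cells of the higher side, and genes alike were the 3 of highest Pearson's r. The fit was tested on simulated data. The members and lists were chosen with earlier results of these data known. Alternatives were DESeq2 1.42.0, other scaling, filters, thinning, plate sums, a pool block, left-out pools and other groupings. A few results on genes other than the claudins are not reported here.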

Additional observations from a re-analysis of the deposited data

How the results depend on the processing

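With DESeq2 the genes called went from 3092 to 5080 between cholangiocytes and hepatocytes, from 3846 to 6511 in endothelial clusters, from 740 to 482 in #e2 and from 406 to 1605 in the sinusoidal clusters, and the claudins called from 5 to 3 in the first and from 0 to 2 in the last. With genes of low count kept in the test, 1182 passed in #e2, 725 in the sinusoidal clusters and 1029 in #e1 (583 in the reported fit), with 1 claudin in #e2 and 1 in the sinusoidal clusters. With clusters of the class only, 6305 genes were called between cholangiocytes and hepatocytes, 349 in #e2 (1 claudin) and 252 in #e1. Sums per plate gave 203 genes and 1 claudin in the sinusoidal clusters and 1 claudin in #e2, as did sums of at least 10 cells and leaving out #e4. The claudin called in #e2 was *Cldn5* in each of these but the sums per plate, where *Cldn5* had an adjusted p of 0.0861. With #e7 moved, 671 genes and 3 claudins were called in the sinusoidal clusters. Without #p1, 1835 genes were called between cholangiocytes and hepatocytes. Leaving out #p1, leaving #e1 and #e7 out of the clusters beside #e2 and joining #e1 with #e7 were chosen after seeing the data. The cause of these shifts was not tested.

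Leaving out 1 pool at a time gave 1530 to 3675 genes and 4 to 6 claudins between cholangiocytes and hepatocytes, where leaving out the male epithelial pool removed all hepatocyte sums and could not be fitted. It gave 2524 to 4436 genes in endothelial clusters, 450 to 899 genes and 0 to 1 claudin in #e2, 158 to 486 genes and 0 to 1 claudin in the sinusoidal clusters, and 353 to 700 genes and 0 to 1 claudin in #e1. *Cldn12* changed sign in 3 comparisons: against hepatocytes when thinned (-0.17) and by plate sums (-0.047), in endothelial clusters (-0.76 to 1.65 with 1 pool left out) without the male (-0.74) or female (-0.76) endothelial pool, and in #e1 by plate sums (-0.53). *Cldn5* between cholangiocytes and hepatocytes changed sign by plate sums (1.20). None of these passed in the fit reported. From #p4 to #p5, thinned cells gave -1.19 for *Cldn1*, 4.86 for *Cldn2*, -0.29 for *Cldn12* and -4.22 for *Cldn14*, and adding 1 CPM gave 5.22 for *Cldn2* and -3.51 for *Cldn14*.

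The replicate numbers stand for sex pools. Deviations of same-numbered sums from their cluster means correlated with a median of 0.0726 (-0.0818 to 0.181) within a class, not above 0.1 throughout, so they were not treated as pairs, although sums of a pool share sex and some plates. With the pool as a replicate block, 489 genes were called in #e2 and *Cldn1* lost its call. Size factors of DESeq2 in place of TMM shifted the median of all genes by -0.14 in #e1 and -0.11 in endothelial clusters and reversed no claudin. At a limit of 20 counts the median number of claudins in a cholangiocyte was 3 in place of 5.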
